A study of Mus musculus with 14 samples.

Results

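A set of 6 genes of the Wnt pathway was followed on 14 mouse arrays: the ligand genes Wnt7a and Wnt7b, the transcription factor genes Tcf7l2 and Lef1, and the target and modulator genes Axin2 and Sfrp1. They were taken by name, as every probe whose platform gene symbol was 1 of these 6, out of 16593 genes with a symbol. This gave 10 of 25697 probes. Probes were kept for testing where the log2 signal was at least 7.7, the level that matched a detection p-value of 0.05, on 7 or more of the 14 arrays. Of the 10 probes 7 were kept, and 5 of the 6 genes had a kept probe, against 8435 genes in all. Lef1 was the gene left out.

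The arrays cover 7 cell types in culture with 2 arrays each. Brain-NSCs are neural stem cells (NSCs) grown from brains of 13.5 dpc fetuses that were heterozygous for both ROSA26 (neo/lacZ) and OG2 (Oct4-GFP). MEFs are embryonic fibroblasts from fetuses of the same age and genotype, and ESCs are embryonic stem cells from 3.5 dpc blastocysts, labelled as OG2 heterozygous double transgenic. Induced pluripotent stem cells (iPSCs) had been made from such MEFs with retroviral Oct4, Sox2, Klf4, and c-Myc, and all cells derived from them carry these viral copies. The iPS-NSC#1 and iPS-NSC#3 lines were differentiated from iPSCs in vitro. The iPS-cNSCs came from 13.5 dpc brains of chimeras of iPSCs and host embryos, and were selected with neomycin for cells of iPSC origin. NED-NSCs are the host cells of such chimeric brains, negative for X-gal staining and without the transgenes. The host embryos were B6C3F1, and the host strain and the cell source of NED-NSCs cannot be told apart. Each NSC population is therefore a line under growth factor culture, and a line effect and a source effect cannot be told apart. It is stated nowhere that the 2 arrays of a group came from separate cultures, so the spread behind each p-value is that between arrays and may be technical. In all of these bulk samples, fewer cells of a type and less RNA per cell cannot be told apart.

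Wnt ligands are secreted, lipid-modified proteins that bind Frizzled receptors and Lrp5 or Lrp6 on the receiving cell. In the canonical branch this stops the destruction complex, built on Axin and Apc, from degrading beta-catenin, which then enters the nucleus and binds TCF and LEF proteins at target genes. Wnt7a and Wnt7b are known from the developing forebrain, where neural progenitors make them and where they also act on growing brain vessels. Axin2 is a scaffold of the destruction complex and a widely used target gene that feeds back on the pathway. Sfrp1 encodes a secreted protein that binds Wnt ligands outside the cell.

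RefSeq promoter windows (mouse GRCm38.p6, 250 bases before to 50 after an annotated start of a gene) were found for 4 of the 6 genes. These were Wnt7a, Axin2, Tcf7l2, and Lef1, with 8 windows in all. The windows of Wnt7a and Axin2 are shown because, of these 4 genes, they changed over 2-fold between brain-NSCs and other NSC groups, and 1 of 4 Lef1 windows because it alone of the 8 held the core of the TCF and LEF motif. Capitals mark this core (TCAAAG or CTTTGA, found in 16% of 32851 windows of this length) and the GC box (GGGCGG or CCGCCC, 35.7% of windows), each searched on both strands with overlaps allowed. The Wnt7a window held 6 GC boxes and the Axin2 window 2, and neither held the core. The Lef1 window held the core at 2 places and no GC box. It lies downstream of all other Lef1 windows, which begin at 131110047, 131110073, and 131112541 on the same strand. A match is only a match of letters.
Wnt7a (chr6:91411304-91411603, minus strand): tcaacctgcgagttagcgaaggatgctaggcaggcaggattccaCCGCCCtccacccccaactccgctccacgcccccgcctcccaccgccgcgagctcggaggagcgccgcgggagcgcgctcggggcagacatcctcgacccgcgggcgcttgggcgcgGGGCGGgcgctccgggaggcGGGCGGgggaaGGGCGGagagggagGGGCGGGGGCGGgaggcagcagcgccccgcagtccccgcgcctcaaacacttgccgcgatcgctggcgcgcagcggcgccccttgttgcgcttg
Axin2 (chr11:108920099-108920398, plus strand): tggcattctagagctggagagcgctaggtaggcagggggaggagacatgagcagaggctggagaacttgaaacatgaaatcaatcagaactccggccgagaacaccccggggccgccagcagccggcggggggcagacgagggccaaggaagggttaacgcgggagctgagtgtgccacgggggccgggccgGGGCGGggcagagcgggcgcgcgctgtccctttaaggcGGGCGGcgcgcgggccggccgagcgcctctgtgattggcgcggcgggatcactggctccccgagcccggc
Lef1 (chr3:131156044-131156343, plus strand): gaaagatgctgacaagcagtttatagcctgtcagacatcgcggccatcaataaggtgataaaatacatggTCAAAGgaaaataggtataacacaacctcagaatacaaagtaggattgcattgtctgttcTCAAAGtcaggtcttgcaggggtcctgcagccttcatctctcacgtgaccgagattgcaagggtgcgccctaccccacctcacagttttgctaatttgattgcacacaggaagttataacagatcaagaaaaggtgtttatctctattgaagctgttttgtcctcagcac

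The cells carried the markers of their labels. All 8 measured NSC markers, among them Nes, Sox2, Olig2, and Fabp7, were above background on both arrays of each of the 5 NSC groups, all 8 pluripotency markers in ESCs, and all 8 fibroblast markers in MEFs. Of the 8 NSC markers 6 were also above it on both arrays in ESCs, all but Olig2 and Fabp7, and 4 in MEFs. Sox2 had a mean log2 signal of 9.12 in ESCs against 8.91 in brain-NSCs. Of the 8 fibroblast markers 4 were above background on both ESC arrays, and of the 8 pluripotency markers 2 on both MEF arrays. In the NSC groups at least 4 of 8 pluripotency markers and at least 5 of 8 fibroblast markers were above background on neither array. The pluripotency marker Esrrb was not among these, with group means of 8.22 in iPS-NSC#3 to 10.03 in iPS-NSC#1, against 14.67 in ESCs. Of 5 measured endothelial markers, 2 were above background on both arrays in brain-NSCs and in iPS-NSC#3, 1 in iPS-NSC#1, and 0 in NED-NSCs and iPS-cNSCs, and Pecam1 and Cdh5 were above it on no array of any NSC group. On the 10 arrays with a column of signals matched by name, 11916 to 12721 probes had a detection p-value under 0.05, and the correlation of replicate arrays was 0.989 to 0.998. The arrays of iPS-NSC#1 and iPS-NSC#3 had no such column. The 4 signal columns that matched no array by name were not used. No detection p-value was therefore assigned to these 2 lines, and their calls above background rest on the level of 7.7 alone. The lowest signals were 79.8 to 96.2 in MEFs and iPS-cNSCs and 119.2 to 132.2 on the other matched arrays, so the iPS-cNSC and MEF arrays stood apart in background before normalization.

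Wnt7a and Wnt7b were high in the NSCs taken from brain, intermediate to low in the NSCs made in vitro, and at or near background in ESCs and MEFs. Wnt7a had log2 signals of 11.09 and 11.06 in brain-NSCs, 10.68 and 10.54 in NED-NSCs, and 10.59 and 10.78 in iPS-cNSCs. Its signals were 9.16 and 8.95 in iPS-NSC#1 and 8.24 and 8.11 in iPS-NSC#3. In ESCs (7.29 and 7.38) and MEFs (7.35 and 7.22) no array was above background. In Wnt7a the 2 in vitro lines thus lay between the brain-derived NSCs and the non-neural cells, with no overlap on either side.

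**Figure D1:**
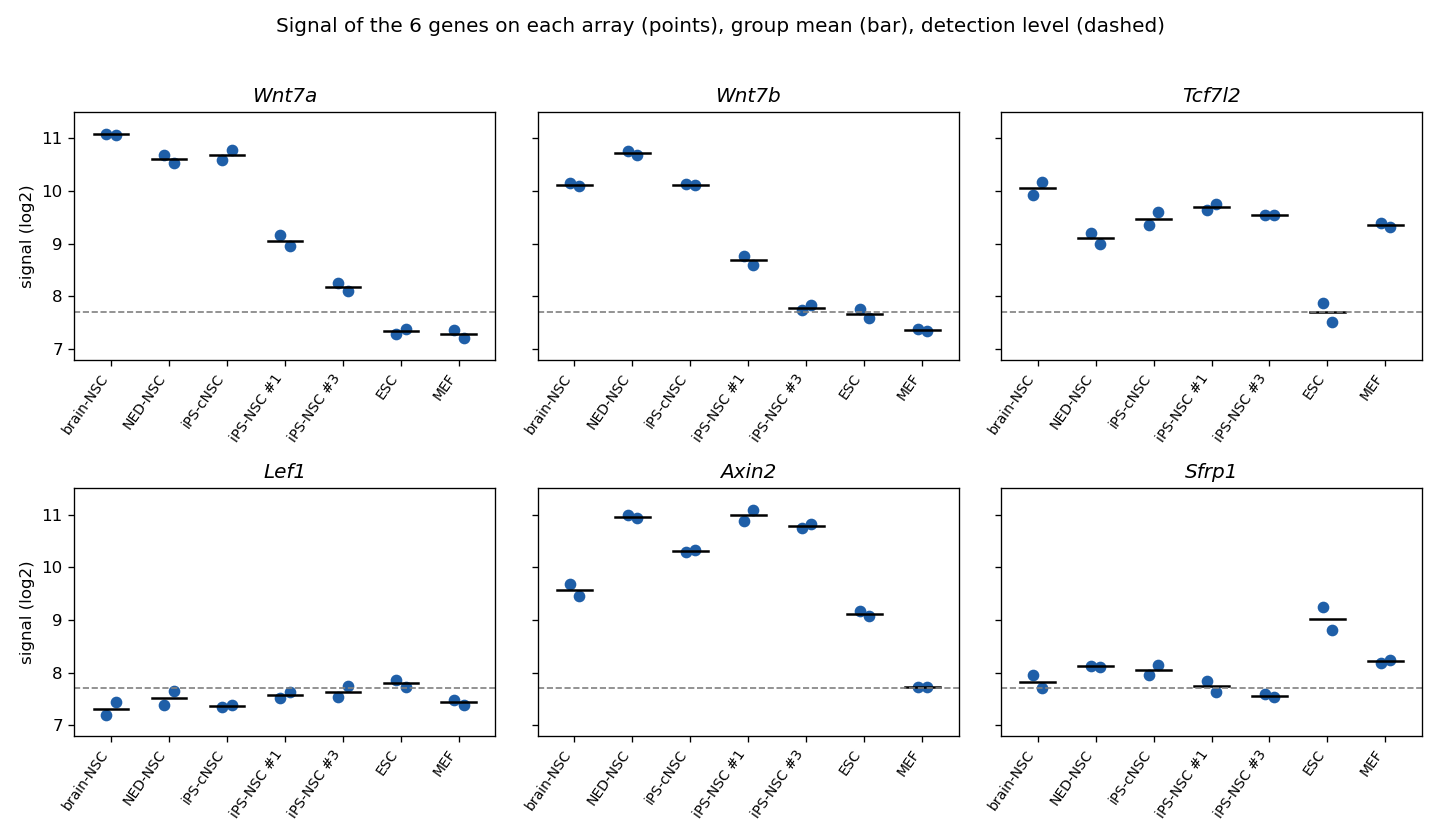
Log2 signal (vertical axis) of each of the 6 genes on each of 14 arrays (points), by group, with the group mean (bar) and the detection level of 7.7 (dashed line); Wnt7b, Tcf7l2, and Lef1 are drawn with their brighter probe. Wnt7a and Wnt7b lie above 10 in brain-NSCs, NED-NSCs, and iPS-cNSCs and below 9.2 in both in vitro lines, Axin2 lies above 10 in all NSC groups except brain-NSCs, and Lef1 stays near the detection level everywhere.

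The question of the in vitro comparison is how far NSCs differentiated in culture resemble NSCs from fetal brain. Wnt7a was 4.06-fold lower in iPS-NSC#1 than in brain-NSCs (log2 difference -2.02, SE 0.10, limma adjusted p = 3.2e-10) and 7.46-fold lower in iPS-NSC#3 (-2.90, SE 0.10, limma adjusted p = 2.5e-12). For Wnt7b the brighter of its 2 kept probes was used. It had log2 signals of 10.16 and 10.09 in brain-NSCs, 8.77 and 8.59 in iPS-NSC#1, and 7.75 and 7.83 in iPS-NSC#3. The arrays of the 3 groups do not overlap, and iPS-NSC#3 was barely above the detection level. Wnt7b was 2.71-fold lower in iPS-NSC#1 (-1.44, SE 0.09, limma adjusted p = 4.3e-09) and 5.05-fold lower in iPS-NSC#3 (-2.34, SE 0.09, limma adjusted p = 7.6e-12).

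Axin2 moved the other way in the same lines, and was also higher than in brain-NSCs in NED-NSCs (1.39) and iPS-cNSCs (0.74). All of these comparisons share the 2 brain-NSC arrays. The log2 signals of Axin2 were 9.68 and 9.46 in brain-NSCs against 10.88 and 11.09 in iPS-NSC#1 and 10.75 and 10.82 in iPS-NSC#3. Both lines were above brain-NSCs on every array, by 2.67-fold (1.41, SE 0.09, limma adjusted p = 1.1e-08) and 2.33-fold (1.22, SE 0.09, limma adjusted p = 4.1e-08). Genes were counted as called when they changed over 2-fold with a p under 0.05 after Benjamini-Hochberg adjustment across the kept probes. By this rule 3 of the 5 tested genes were called in iPS-NSC#1 (1 higher, 2 lower), where 4.87% of all 8435 genes were called (2.92% higher, 1.96% lower). In iPS-NSC#3 3 were called (1 higher, 2 lower), where 6.67% of all genes were called (3.36% higher, 3.32% lower). The median log2 difference was -0.35 over the 5 genes and -0.02 over all genes in iPS-NSC#1, and -0.51 and -0.01 in iPS-NSC#3. The mean log2 signal of the 8 NSC markers was 11.68 and 11.77 on the brain-NSC arrays, 11.27 and 11.32 in iPS-NSC#1, and 11.19 and 11.35 in iPS-NSC#3, and its part in these differences was not tested.

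The lines also differed from each other in the ligands. Wnt7a was 1.84-fold higher in iPS-NSC#1 than in iPS-NSC#3 (0.88, SE 0.10, limma adjusted p = 6.7e-06), and Wnt7b was 1.86-fold higher (0.90, SE 0.09, limma adjusted p = 1.4e-06). By the second kept probe of Wnt7b the difference between the lines was 0.18 (95% interval -0.09 to 0.44, limma adjusted p = 0.34). Neither gene reached 2-fold, so 0 of 5 genes were called between the lines, and 2 at adjusted p alone. For all genes these shares were 3.02% and 29.9%. For Axin2 the difference between the lines was 0.20 (95% interval -0.01 to 0.40, limma adjusted p = 0.15).

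The iPS-cNSCs, which had been differentiated inside a chimeric embryo, lay with the brain-derived cells in both ligands, above every array of the in vitro lines. Their Wnt7b signals (10.14 and 10.11) lay among those of brain-NSCs, with a log2 difference of 0.00 (95% interval -0.19 to 0.19, limma adjusted p = 0.99). Wnt7a was 1.31-fold lower than in brain-NSCs (-0.39, SE 0.10, limma adjusted p = 0.004). Its arrays were below both brain-NSC arrays, but the change was under 2-fold. When raw signals of the 10 matched arrays were scaled by the median of all probes, this difference was 0.42 and that of Wnt7b 0.85, while the median of all genes was 0.56. Of the 5 genes 0 were called in iPS-cNSCs against brain-NSCs, with a background of 6.2% of all genes, while 3 passed the adjusted p alone, as did 57.1% of all genes. The 3 were Wnt7a, Tcf7l2, and Axin2, with log2 differences of -0.39, -0.58, and 0.74. With the median scaling Axin2 was 1.60 higher, and 1 gene was called.

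Against the in vitro lines the ligands were higher in iPS-cNSCs. Wnt7a was 3.1-fold higher than in iPS-NSC#1 (1.63, SE 0.10, limma adjusted p = 2.5e-09) and 5.7-fold higher than in iPS-NSC#3 (2.51, SE 0.10, limma adjusted p = 1.1e-11). Wnt7b was 2.72-fold higher than in iPS-NSC#1 (1.44, SE 0.09, limma adjusted p = 2.7e-09) and 5.05-fold higher than in iPS-NSC#3 (2.34, SE 0.09, limma adjusted p = 6.4e-12). These were the 2 genes called in each comparison, both higher. By the second Wnt7b probe the differences were 0.44 and 0.61 (limma adjusted p = 0.008 and 0.00062), under 2-fold, which left 1 called gene in each. Of all genes 8.11% were called against iPS-NSC#1 (4.67% higher) and 9.13% against iPS-NSC#3 (5.5% higher). Axin2 was below both lines in iPS-cNSCs but by under 2-fold, with differences of -0.67 (limma adjusted p = 2.5e-05) and -0.48 (limma adjusted p = 5e-04) on the log2 scale. Both of these comparisons share the iPS-cNSC arrays. The median scaling was not run for them, as the in vitro arrays had no matched signals.

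NED-NSCs, the host counterpart from the same kind of brain, had the highest Wnt7b of all groups. The signals were 10.77 and 10.69, above both brain-NSC arrays, and the mean was 1.52-fold higher than in brain-NSCs (0.61, SE 0.09, limma adjusted p = 6.5e-05). By the second probe NED-NSCs were also highest, but the difference from brain-NSCs was 0.33 (limma adjusted p = 0.053). The difference of iPS-cNSCs from NED-NSCs was -0.60 (limma adjusted p = 4.7e-05), and 0.43 with the median scaling, where all genes had a median of 0.71. Wnt7a was 1.38-fold lower than in brain-NSCs (-0.47, SE 0.10, limma adjusted p = 0.0017) and differed from iPS-cNSCs by 0.08 (95% interval -0.13 to 0.29, limma adjusted p = 0.53). Axin2 was the 1 gene called in NED-NSCs. Its signals of 10.99 and 10.93 were 2.63-fold above brain-NSCs (1.39, SE 0.09, limma adjusted p = 1.5e-08), where 4.18% of all genes were called (2.51% higher). The 719 tested genes of chromosome 11, which carries Axin2, had a median log2 difference of 0.14 in this comparison against -0.03 for genes of the other chromosomes, and its part in the Axin2 value was not tested. Between iPS-cNSCs and NED-NSCs 0 of 5 genes were called (5.37% of all genes), and 3 at adjusted p alone (53.7% of all genes).

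**Figure D2:**
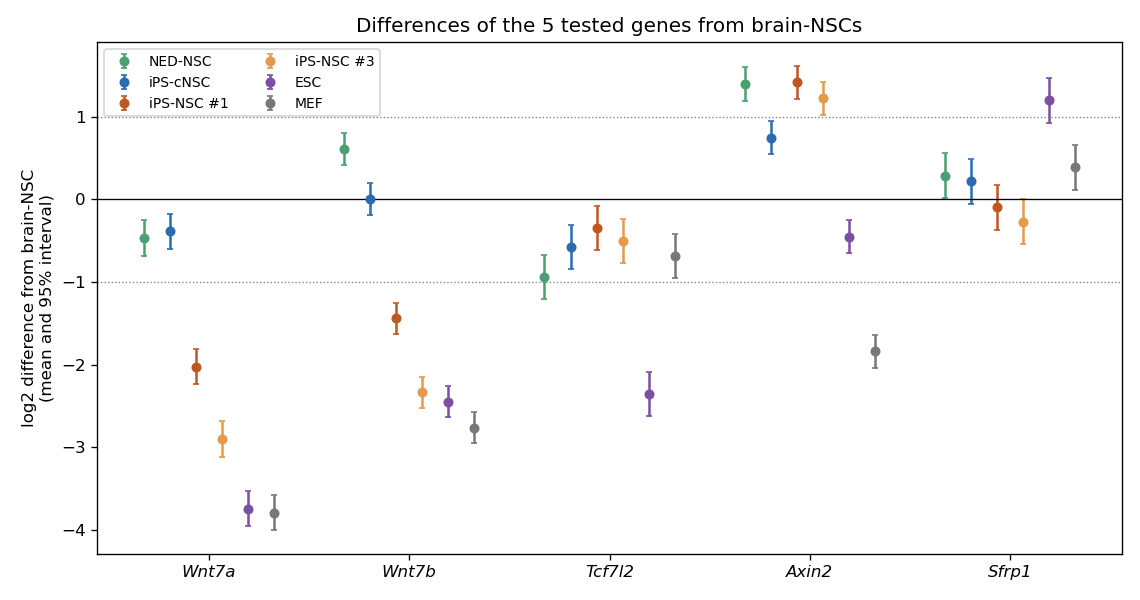
Log2 difference from brain-NSCs (vertical axis) for the 5 tested genes in 6 groups, as the limma estimate (point) with its 95% interval (bar); dotted lines mark a change of 2-fold. Both Wnt7 ligands lie below the lower dotted line in the in vitro lines, ESCs, and MEFs and within 2-fold in NED-NSCs and iPS-cNSCs, while Axin2 lies above the upper line in NED-NSCs and both in vitro lines.

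In ESCs and MEFs the ligands were lowest. In both, Wnt7a was lower than in brain-NSCs by at least 10.4-fold (limma adjusted p = 2.7e-14 in ESCs and 1.6e-14 in MEFs), a bound set by the background level. Wnt7b had signals of 7.75 and 7.59 in ESCs, with 1 of 2 arrays above background, and 7.38 and 7.34 in MEFs, with none. Its log2 difference from brain-NSCs was -2.45 in ESCs (SE 0.09, limma adjusted p = 9.8e-13), and -4.41 after normexp background correction (neqc) of the 10 matched arrays, so its size changed with the background correction. It was at least 5.36-fold lower in MEFs (limma adjusted p = 1.7e-13). Axin2 stayed above background in ESCs (9.16 and 9.07), with a log2 difference of -0.45 (limma adjusted p = 0.00055). In MEFs its signals of 7.73 and 7.73 were just above the level, but its detection p-values of 0.053 and 0.054 were not under 0.05. Axin2 was therefore at least 3.58-fold lower in MEFs than in brain-NSCs (limma adjusted p = 5.6e-11), with a log2 difference of -1.84 in the deposited values and -3.55 after neqc. Of the 5 genes 4 were called in ESCs (1 higher, 3 lower), where 21% of all genes were called (8.51% higher, 12.5% lower). In MEFs 3 were called, each lower, where 24.7% of all genes were called (13.6% lower). All genes had a median log2 difference of -0.14 in MEFs.

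In the order of group means, Wnt7a ran from brain-NSCs through iPS-cNSCs, NED-NSCs, iPS-NSC#1, and iPS-NSC#3 to ESCs and MEFs. Only iPS-cNSCs and NED-NSCs (gap 0.08, limma adjusted p = 0.53) and ESCs and MEFs (gap 0.05, limma adjusted p = 0.66) did not differ beyond their spread. The largest step, 1.55, lay between NED-NSCs and iPS-NSC#1 (limma adjusted p = 5.3e-09). For Wnt7b the order was NED-NSCs, iPS-cNSCs, brain-NSCs, iPS-NSC#1, iPS-NSC#3, ESCs, and MEFs, where iPS-NSC#3 and ESCs (gap 0.11, limma adjusted p = 0.27) and iPS-cNSCs and brain-NSCs did not differ beyond their spread. For Axin2 the order was iPS-NSC#1, NED-NSCs, iPS-NSC#3, iPS-cNSCs, brain-NSCs, ESCs, and MEFs, and the first 3 did not differ from one another beyond their spread (gaps 0.02 and 0.17, limma adjusted p = 0.89 and 0.17). Over the 7 group means Pearson's r was 0.97 between Wnt7a and Wnt7b and 0.51 between Axin2 and either ligand, as a description of groups that share a fit.

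The second kept probe of Wnt7b was dimmer and had the same order of brain-derived over in vitro cells with smaller differences. Its log2 signals were 8.60 and 8.43 in brain-NSCs, 8.93 and 8.75 in NED-NSCs, and 8.40 and 8.10 in iPS-cNSCs. In iPS-NSC#1 they were 8.0 and 7.63 and in iPS-NSC#3 7.71 and 7.56, so that 1 of 2 arrays in each line was below the detection level. By this probe Wnt7b was lower than in brain-NSCs by 0.70 in iPS-NSC#1 (log2 difference -0.70, SE 0.13, limma adjusted p = 0.00034) and by 0.88 in iPS-NSC#3 (-0.88, SE 0.13, limma adjusted p = 3.7e-05). Neither passed 2-fold, which left 2 called genes in each line in place of 3. The difference of iPS-cNSCs from brain-NSCs was -0.26 by this probe (95% interval -0.53 to 0.00, limma adjusted p = 0.086).

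**Figure D3:**
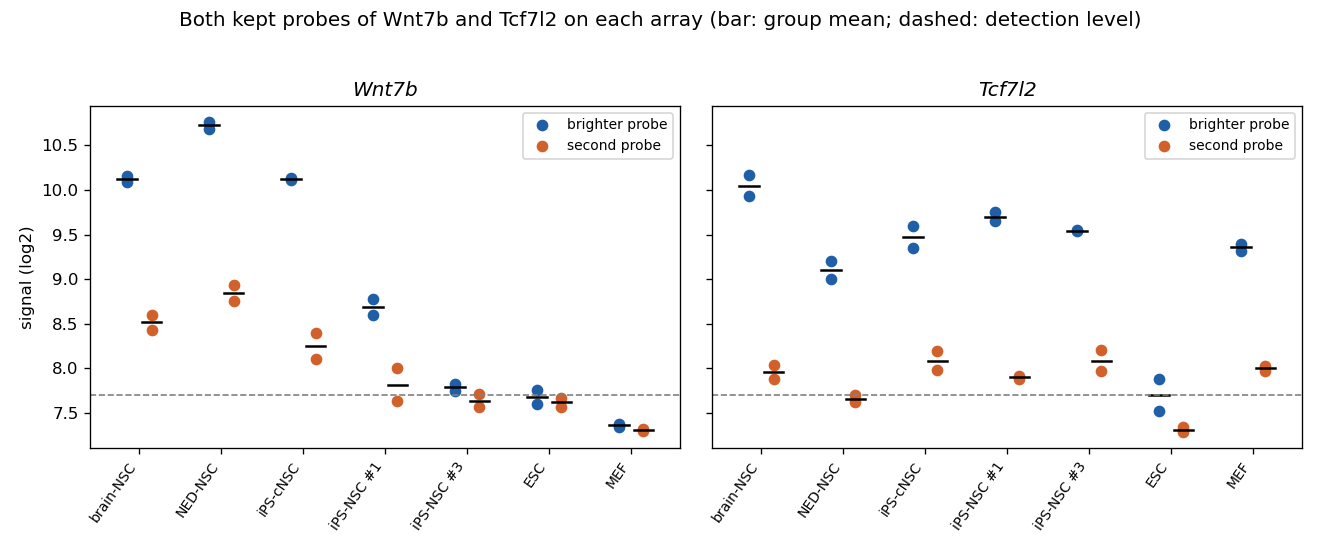
Log2 signal (vertical axis) of the brighter and the second kept probe of Wnt7b and Tcf7l2 on each array (points), by group, with group means (bars) and the detection level of 7.7 (dashed). The second Wnt7b probe lies below the brighter one in every group, with a range of group means of 1.54 against 3.37, and the second Tcf7l2 probe has a range of 0.78 against 2.35.

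Tcf7l2, which encodes a DNA-binding partner of beta-catenin, was lowest in ESCs. It had log2 signals of 9.93 and 10.16 in brain-NSCs, 9.21 and 9.0 in NED-NSCs, 9.35 and 9.60 in iPS-cNSCs, 9.65 and 9.76 in iPS-NSC#1, and 9.55 and 9.54 in iPS-NSC#3. MEFs had 9.40 and 9.32, within the range of the NSC groups, and ESCs 7.88 and 7.51, with 1 of 2 arrays above background. The log2 difference of ESCs from brain-NSCs was -2.35 (SE 0.13, limma adjusted p = 1.1e-10), and -4.21 after neqc. In the other 5 groups it was lower by less than 2-fold, from -0.35 in iPS-NSC#1 (limma adjusted p = 0.036) to -0.94 in NED-NSCs (limma adjusted p = 2.4e-05). The NED-NSC difference was past 2-fold without NED-NSC replicate 1 (-1.05) and without brain-NSC replicate 1 (-1.06).

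Beside these smaller differences stands a shift of the chromosome that carries Tcf7l2. The 300 tested genes of chromosome 19 had median log2 differences from brain-NSCs of -0.28 to -0.44 in the 6 other groups, against -0.13 to 0.00 for genes of the other chromosomes. Between groups other than brain-NSCs in the comparisons made here, the chromosome 19 median was -0.16 to -0.07. Its part in the Tcf7l2 values was not tested. The second Tcf7l2 probe was near the detection level, with group means of 7.31 in ESCs to 8.08 in iPS-cNSCs and iPS-NSC#3. By this probe the differences from brain-NSCs were -0.06 in iPS-NSC#1, 0.12 in iPS-NSC#3, 0.13 in iPS-cNSCs, and 0.04 in MEFs, none past an adjusted p of 0.05 by limma. In NED-NSCs and ESCs no array reached the level of 7.7 by this probe. The differences were -0.30 (limma adjusted p = 0.026) and -0.65 (limma adjusted p = 2.5e-05), or at least 1.2-fold lower in both. The signal of NED-NSC replicate 1, 7.695, was just under the level, but its detection p-value of 0.041 was under 0.05. The remaining Tcf7l2 probe was at or above the level on 0 of 14 arrays.

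Lef1, the other DNA-binding partner, was near background. Its brighter probe had log2 signals of 7.86 and 7.73 in ESCs, above the level on both arrays, and 7.53 and 7.74 in iPS-NSC#3, above it on 1. All other arrays lay between 7.2 and 7.66. The other Lef1 probe was above the level on 0 of 14 arrays, with a highest signal of 7.50. No brain-NSC array was above background, so only a bound can be given, at least 1.07-fold higher in ESCs (limma adjusted p = 0.00088 in a fit without the filter).

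Sfrp1 was highest in ESCs and low in all NSC groups. Its log2 signals were 9.24 and 8.81 in ESCs and 8.19 and 8.24 in MEFs, against 7.96 and 7.70 in brain-NSCs, 8.13 and 8.10 in NED-NSCs, and 7.95 and 8.14 in iPS-cNSCs. In iPS-NSC#1 1 of 2 arrays was above background (7.83 and 7.64), and in iPS-NSC#3 none (7.58 and 7.53). Sfrp1 was 2.29-fold higher in ESCs than in brain-NSCs (1.20, SE 0.13, limma adjusted p = 5e-07). The log2 difference was 0.98 without ESC replicate 1 and 0.93 with the median scaling, neither over 2-fold, but 2.47 after neqc. In MEFs the log2 difference was 0.39 (limma adjusted p = 0.013), and 1.07 after neqc. In the other NSC groups it was -0.27 to 0.29, with limma adjusted p from 0.093 to 0.58. The 460 tested genes of chromosome 8, which carries Sfrp1, had a median log2 difference from brain-NSCs of 0.29 in ESCs and 0.29 in iPS-cNSCs, against -0.06 and -0.07 for the other chromosomes, and its part in the Sfrp1 values of 1.20 and 0.22 was not tested.

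The other genes of the pathway were taken from a list of 111, of which 103 had a probe and 51 could be tested. Of 17 other ligand genes, all with a probe, 2 passed the filter, Wnt5a and Wnt5b, and the other 15 were not tested. Wnt5a, which acts mostly outside the canonical branch, had mean log2 signals of 12.27 in brain-NSCs, 11.56 in NED-NSCs, 11.62 in iPS-cNSCs, 12.02 in iPS-NSC#1, 10.87 in iPS-NSC#3, 8.78 in ESCs, and 12.68 in MEFs. Like the Wnt7 genes it was lower in iPS-NSC#3 than in brain-NSCs (-1.41, limma adjusted p = 4.6e-09), but in iPS-NSC#1 the difference was -0.25. For MEFs it differed by 0.41 (limma adjusted p = 0.00084). Of the ligand secretion genes, Porcn, which adds the lipid to Wnt proteins, was higher in ESCs than in brain-NSCs (1.62, limma adjusted p = 4.8e-11). Wls, which carries them to the cell surface, was higher in MEFs (2.16, limma adjusted p = 2.8e-09).

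Of 11 tested receptor genes, 0 were called in iPS-NSC#1 and in NED-NSCs, 2 were lower in iPS-NSC#3, and 1 was higher in iPS-cNSCs, all against brain-NSCs, where 4.87%, 4.18%, 6.67%, and 6.2% of all genes were called. Fzd1 was the gene higher in iPS-cNSCs (1.25, SE 0.16, limma adjusted p = 1.4e-05), and also against iPS-NSC#1 (1.23) and NED-NSCs (1.05). Fzd10 was lower in iPS-NSC#3 (-1.40, SE 0.12, limma adjusted p = 9.6e-08), with a mean log2 signal of 7.75 against 9.15 in brain-NSCs. The difference of iPS-cNSCs from NED-NSCs was -1.62 (limma adjusted p = 2.9e-08). Lgr5, a receptor for R-spondins, had mean log2 signals of 7.73 in iPS-cNSCs and 9.18 in iPS-NSC#1, a difference of -1.44 (SE 0.09, limma adjusted p = 2.5e-09).

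Of 10 tested partners of TCF proteins, 3 were higher and 1 lower in each of iPS-NSC#1 and iPS-NSC#3, where 4.87% and 6.67% of all genes were called. Tle2, a Groucho-family corepressor, was 6.11-fold higher in iPS-NSC#1 (2.61, SE 0.12, limma adjusted p = 1.6e-10) and 3.84-fold higher in iPS-NSC#3 (1.94, SE 0.12, limma adjusted p = 3.7e-09). Tle4, another corepressor of the family, was lower in both lines (-1.80 and -1.75, limma adjusted p = 7.4e-11 and 7.3e-11) and also in iPS-cNSCs (-1.51, limma adjusted p = 7.1e-10). Bcl9l, a coactivator that binds beta-catenin, was higher in both lines (1.24 and 1.08, limma adjusted p = 7.4e-06 and 2.6e-05). Tcf7l1, a TCF that acts mainly as a repressor, had mean log2 signals of 10.91 in brain-NSCs, 11.21 in iPS-NSC#1, and 11.12 in iPS-NSC#3, but 9.73 in NED-NSCs and 9.43 in iPS-cNSCs. It was called lower than in brain-NSCs in NED-NSCs (-1.18, limma adjusted p = 6.7e-08) and iPS-cNSCs (-1.48, limma adjusted p = 4.5e-09).

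Of 10 tested target genes other than Axin2, 1 was called in iPS-NSC#1 (4.87% of all genes) and 2 in iPS-NSC#3 (6.67% of all genes). Tnfrsf19, a receptor gene that responds to Wnt signals, was lower in iPS-NSC#1 (-1.03, SE 0.13, limma adjusted p = 1.1e-05) and higher in iPS-cNSCs (1.12, SE 0.13, limma adjusted p = 3.6e-06). Ccnd2, which encodes cyclin D2, was lower in iPS-NSC#3 (-1.70, limma adjusted p = 8.2e-10), with mean log2 signals of 11.68 against 13.38 in brain-NSCs and 13.21 in iPS-NSC#1. Ccnd1, which encodes cyclin D1, was called in iPS-cNSCs (1.01, limma adjusted p = 5.7e-07), and was 0.72 to 0.81 higher in NED-NSCs and both in vitro lines, under 2-fold. Myc differed from brain-NSCs by -0.32 to 0.06 in these 4 groups, with limma adjusted p from 0.064 to 0.76. Of these 10 targets 0 were called higher and 1 lower in iPS-NSC#1, and 1 higher and 1 lower in iPS-NSC#3.

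Over the 51 pathway genes, 3 were higher and 2 lower in iPS-NSC#1 than in brain-NSCs (4.87% of all genes called in either direction), and 5 and 5 in iPS-NSC#3 (6.67%). In iPS-cNSCs 3 were higher and 3 lower (6.2% of all genes), and in NED-NSCs 1 and 1 (4.18%). In ESCs 7 were higher and 11 lower (21% of all genes), and in MEFs 8 and 7 (24.7%). The median log2 difference of the 51 was -0.02 in iPS-NSC#1, 0.06 in iPS-NSC#3, -0.02 in iPS-cNSCs, 0.06 in NED-NSCs, -0.20 in ESCs, and 0.15 in MEFs. In MEFs Ccn4, a matricellular protein gene induced by Wnt signals, was 72.8-fold higher than in brain-NSCs (6.19, SE 0.08, limma adjusted p = 3.1e-18), where 1 of 2 arrays was above background. In ESCs Bmp4, a growth factor gene, was at least 5.49-fold higher (limma adjusted p = 5.9e-13), and Ccnd2 was 14.9-fold lower (-3.89, limma adjusted p = 9.4e-15).

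**Figure D4:**
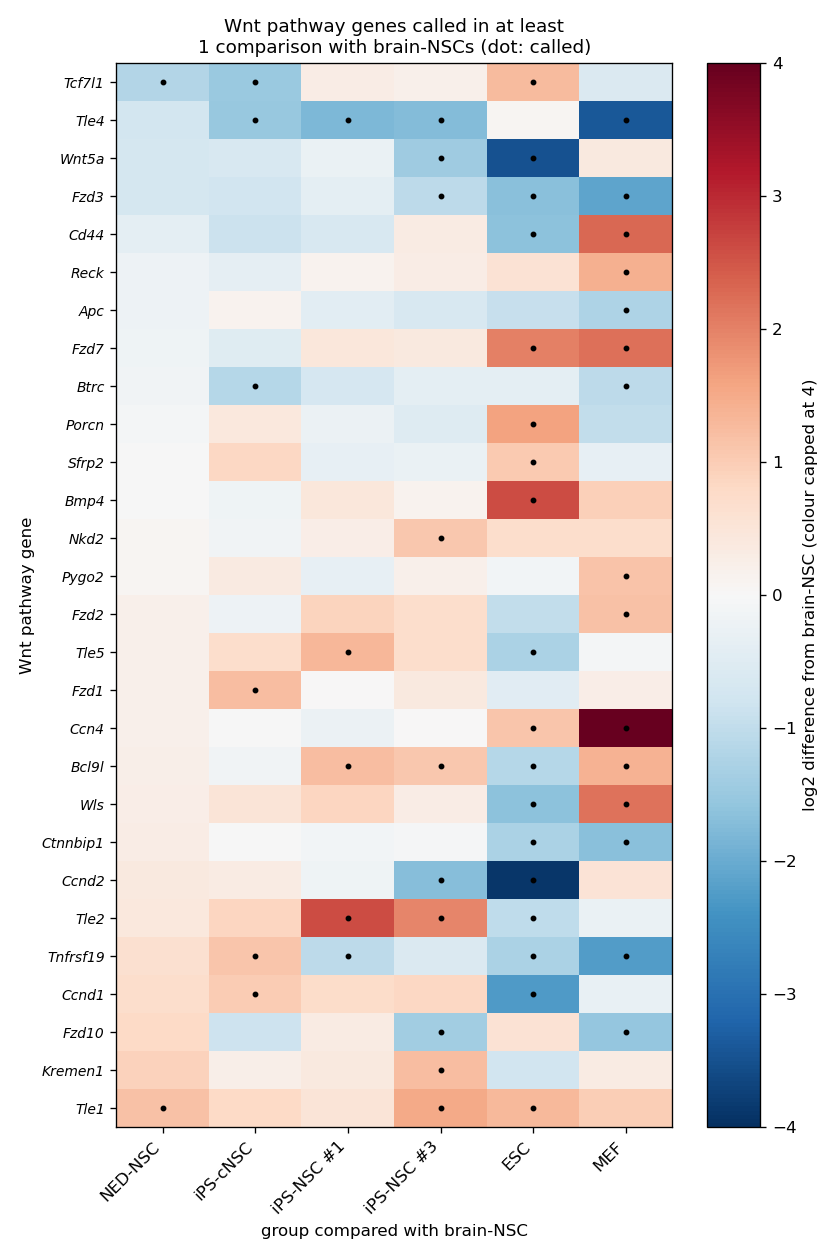
Log2 difference from brain-NSCs (colour, capped at 4) of the 28 pathway genes called in at least 1 of the 6 comparisons with brain-NSCs, ordered by their value in NED-NSCs, with a dot where the gene was called. NED-NSCs have 2 dots, ESCs 18, and MEFs 15, and Tle4 is lower and dotted in iPS-cNSCs, both in vitro lines, and MEFs.

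The genes with the group pattern most like each member were found among 4831 genes by Pearson's r over the 7 group means, as a description with no test. For Wnt7a they were Tubb2b (r = 0.991), which encodes a beta-tubulin, Arhgef4 (0.989), and Rorb (0.982), a nuclear receptor gene. Unlike Wnt7a, Tubb2b was bright in all groups, with means of 15.50 in brain-NSCs, 14.13 in ESCs, and 14.03 in MEFs. The r describes the shape over groups, not the level or the size of the differences. For Wnt7b they were B3gat1 (r = 0.995), Chst3 (0.987), and Rorb (0.985). B3gat1, whose enzyme makes the HNK-1 carbohydrate, had mean log2 signals of 11.49 in NED-NSCs, 11.04 in iPS-cNSCs, and 10.91 in brain-NSCs, against 8.89 in iPS-NSC#1 and 8.21 in iPS-NSC#3. For Axin2 they were Agrn (r = 0.99), E2f2 (0.98), and Zfp24 (0.98). For Tcf7l2 they were Tmem98 (r = 0.98), 1600012H06Rik (0.97), and Pip4p2 (0.96), and for Sfrp1 Dmac2 (r = 0.98), Lrrc8d (0.98), and Dhx32 (0.97). The 7 points share 1 normalization and are few, so many genes can reach such values.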

How the data were processed

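Labelled cRNA was hybridized by the authors to Illumina MouseRef-8 v2 arrays, with 2 arrays for each of 7 groups. The deposited log2 values had been quantile normalized by the authors across all 14 arrays and were used with no second normalization. A second deposited table holds signal intensities, extracted with GenomeStudio 2011.1 per the submitters' processing notes, and a detection p-value per probe, before normalization. Of its columns 10 signal columns with their detection p-values were matched to an array by name, and 8 columns of arrays were not used. On the matched arrays the p-value crossed 0.05 at log2 values of 7.68 to 7.74, and 7.7 on 7 or more arrays, after the authors' rule of 50% of samples, was the filter.

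Of 25697 probes 12195 were kept. A gene was represented by its brightest kept probe. Symbols came from the platform table (23978 probes with 1 symbol, 1719 with none). In R 4.3.3 with limma 3.58.1, 1 mean per group was fitted over all 14 arrays (7 residual and 8.21 prior degrees of freedom) and p-values were adjusted over all kept probes. limma replaced the local-pooled-error test of the methods, which was run as an alternative. "At least" folds compare the bright group with the higher of the background level and the dim probe's own signal. Nearest-pattern genes were taken among genes whose group means span at least 1 log2 unit. Named pathway genes were drawn from up to 4 called rises and 4 called falls in each comparison, and a few values of others are given for context after they were seen (Wnt5a in further groups, Ccnd1, Myc). The scripts were first run on simulated arrays with known changes. The number of arrays, 2 per group, limits the precision. The members and lists were chosen with earlier results of these data known. Replicate numbers did not pair arrays. The difference of replicate 1 from replicate 2 was correlated between groups over the kept probes. This r was -0.24 to 0.12, and over 0.1 in 3 of 21 pairs of groups. Sequences are from RefSeq.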

Additional observations from a re-analysis of the deposited data

Results flagged for a closer look

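The differences of the ligands from brain-NSCs were not the same in iPS-cNSCs and in the in vitro lines, as tested directly between these groups. A line effect and the way of differentiation cannot be told apart. The log2 difference of iPS-cNSCs from iPS-NSC#1 was 1.63 for Wnt7a and 1.44 for Wnt7b, and from iPS-NSC#3 it was 2.51 for Wnt7a and 2.34 for Wnt7b (limma adjusted p = 2.5e-09, 2.7e-09, 1.1e-11, and 6.4e-12). With the second probe the Wnt7b differences were 0.44 and 0.61. Groups of 2 arrays were too small for a test of outlying arrays.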

How the results depend on the processing

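The counts of called genes and the log2 differences kept their direction and side of the threshold in all 50 values each under a second quantile normalization, no detection filter, a filter on 2 or more arrays, and the local-pooled-error test. The same held with the replicate number as a block, where the counts of called genes were unchanged (3 in iPS-NSC#1, 0 in iPS-cNSCs). Leaving the MEF and iPS-cNSC arrays out, an alternative chosen after seeing the data, changed none of 25 values. Of these alternatives only the second quantile normalization could change a log2 difference. The others use the same group means, so direction and fold were fixed and only the p-values could move. A slide block was not run, as the column names give no slide.

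A filter on all 14 arrays left only Axin2 to test, so counts against brain-NSCs became 1 in iPS-NSC#1, iPS-NSC#3, and MEFs and 0 in ESCs, and iPS-cNSCs against either in vitro line gave 0. With adjusted p alone, counts were 4 in each in vitro line, 3 in iPS-cNSCs, 4 in NED-NSCs, 5 in ESCs and in MEFs, 4 for iPS-cNSCs against each in vitro line, 3 against NED-NSCs, and 2 between the in vitro lines. Normexp background correction of the intensities (neqc) gave 2 in NED-NSCs, where Tcf7l2 was -1.21. It also added Sfrp1, at 1.07, to the calls in MEFs. More of all genes were called. In iPS-cNSCs 754 were higher and 746 lower (311 and 212 in the reported fit), and in NED-NSCs 516 and 345 (212 and 141). In ESCs they were 1179 and 1805 (718 and 1052), and in MEFs 1384 and 2093 (934 and 1150). For iPS-cNSCs against NED-NSCs they were 656 and 630 (261 and 192).

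Scaling raw log2 intensities by the median of all probes moved the median of all genes to 0.56 in iPS-cNSCs against brain-NSCs (1914 higher and 59 lower, against 311 and 212), to 0.71 against NED-NSCs (2496 and 52, against 261 and 192), to 0.26 in MEFs (1863 and 666, against 934 and 1150), to -0.13 in ESCs (523 and 1228, against 718 and 1052), and to -0.11 in NED-NSCs (142 and 203, against 212 and 141). It gave counts of 1 in iPS-cNSCs and 2 in NED-NSCs against brain-NSCs and 2 for iPS-cNSCs against NED-NSCs. Values that turned sign were Wnt7a 0.42 and Tcf7l2 0.22 in iPS-cNSCs against brain-NSCs and Wnt7b 0.43, Axin2 0.39, and Sfrp1 0.30 against NED-NSCs, each below the median of all genes.

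With the second probes of Wnt7b and Tcf7l2, 2 genes were called in each in vitro line in place of 3, 2 in ESCs in place of 4, and 1 in iPS-cNSCs against either in vitro line in place of 2. Wnt7b then was -0.70 in iPS-NSC#1, -0.88 in iPS-NSC#3, and -0.90 in ESCs, none over 2-fold, -0.26 in iPS-cNSCs, and 0.18 between the lines. Tcf7l2 was -0.65 in ESCs. Tcf7l2 turned sign in iPS-NSC#3 (0.12), iPS-cNSCs (0.13), and MEFs (0.038), in iPS-cNSCs against iPS-NSC#1 (0.19) and iPS-NSC#3 (0.0012), and between the lines (-0.19). The cause was not tested.

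Leaving out each array gave 1 to 2 calls in NED-NSCs (2 without NED-NSC replicate 1 or brain-NSC replicate 1, where Tcf7l2 passed 2-fold) and 3 to 4 in ESCs (3 without ESC replicate 1), and other counts did not move. Uncalled values crossed 0 for Sfrp1 in iPS-NSC#1 (-0.23 to 0.037), Wnt7b in iPS-cNSCs (-0.033 to 0.038), Tcf7l2 in iPS-cNSCs against iPS-NSC#3 (-0.20 to 0.054), and Wnt7a (-0.013 to 0.17) and Sfrp1 (-0.17 to 0.028) in iPS-cNSCs against NED-NSCs. The replicate numbers do not pair the arrays. Signals near 7.7 carry background in the log2 value, which shortens differences of dim genes.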
